A study of Rattus norvegicus with 2 samples.

Results

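The miR-181 family comprises the mature miRNAs miR-181a, miR-181b, miR-181c and miR-181d, and its members were taken from the count table by name, as every row called mmu-miR-181 followed by a, b, c or d, with or without a locus number, on any arm. This gave 6 of the 635 rows, 4 of them 5p arms (mmu-miR-181a-5p, mmu-miR-181b-5p, mmu-miR-181c-5p and mmu-miR-181d-5p) and 2 of them 3p arms (mmu-miR-181b-1-3p and mmu-miR-181b-2-3p). The libraries hold small RNA of exosomes, small vesicles of endosomal origin, from the medium of primary heart muscle cells of Wistar rats aged 1 to 2 days. The cells had been enriched by differential adhesion, plated with BrdU and starved of serum, and were then kept for 48 h either untreated (NC-Exo, exosomes of normal cardiomyocytes) or with 1 μmol/L angiotensin II (Ang II), a peptide hormone that drives hypertrophy (HC-Exo, exosomes of hypertrophic cardiomyocytes). Each condition had 1 library, so none of the differences below has a replicate check, and every interval covers counting error only. Copies made by PCR are counted as separate reads, which the intervals do not allow for. The exosomes were isolated from the medium with a commercial reagent, and how many litters or dishes were pooled is not given in the sources used here.

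A miRNA is cut from a hairpin precursor, whose 5p and 3p arms are both released as a short duplex, and one arm is usually kept in the silencing complex while the other is degraded. The kept arm pairs with messenger RNAs mainly through its seed, bases 2 to 8 from the 5′ end, so miRNAs with 1 seed share many targets. The 5p arms of the miR-181 family are best known from lymphocytes, where miR-181a tunes the sensitivity of the T cell receptor, and from endothelium, where miR-181b restrains NF-κB signalling by targeting importin-α3. In heart muscle, miR-181c is known for acting inside mitochondria on a transcript of the respiratory chain.

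The 5p sequences are shown because the rows they name can be told apart only by the bases after the seed. They are the rat sequences of RefSeq on the GRCr8 assembly, written 5′ to 3′ with the seed in capitals, whereas the counts carry mouse names.
miR-181a-5p: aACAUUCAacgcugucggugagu
miR-181b-5p: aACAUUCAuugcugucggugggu
miR-181c-5p: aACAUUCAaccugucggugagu
miR-181d-5p: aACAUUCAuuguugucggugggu
All 4 share the seed ACAUUCA, and among the 693 rat mature miRNA names in the reference these 4 were the only ones with it. With positions counted from 1 at the 5′ end, miR-181b-5p and miR-181d-5p differ by 1 substitution, C12U from b to d. The step from miR-181a-5p to miR-181b-5p takes 3 substitutions, A9U, C10U and A21G. By edit distance, miR-181a-5p and miR-181c-5p are 1 change apart, the c sequence being 22 bases long and the others 23. The closest pairs are therefore a with c and b with d, and a counter that allows 1 mismatch or gap could move reads within such a pair. How many mismatches the authors' mapping allowed is not given in the sources used here.

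The 6 rat hairpins lie in 3 clusters of 2, all on the plus strand. Mir181a-1 and Mir181b1 lie on chromosome 13, 61 bases apart, with miR-181a-5p at chr13:52037081-52037103 and miR-181b-5p at chr13:52037263-52037285. Mir181a2 and Mir181b2 lie on chromosome 3, 986 bases apart, and the miR-181a-5p of that cluster is at chr3:43025601-43025623. Mir181c and Mir181d lie on chromosome 19, 77 bases apart, with miR-181c-5p at chr19:40888314-40888335 and miR-181d-5p at chr19:40888484-40888506. The mature miR-181a-5p is the same on chromosomes 13 and 3, so its reads cannot be assigned to a cluster. Only the 3p arms carry the locus number in their names, and only miR-181c and miR-181d come from a single hairpin each. These hairpins, at chr19:40888291-40888396 and chr19:40888474-40888556, are shown with their mature arms in capitals.
Mir181c: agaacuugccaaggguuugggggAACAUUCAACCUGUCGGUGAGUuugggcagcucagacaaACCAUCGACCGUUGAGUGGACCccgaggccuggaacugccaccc
Mir181d: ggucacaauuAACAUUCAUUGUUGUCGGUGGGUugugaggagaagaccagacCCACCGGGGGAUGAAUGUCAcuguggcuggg

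The family was a minor part of the exosomal miRNAs in both libraries. Levels are given as reads per 1000000 miRNA reads (RPM), from totals of 102608 reads in NC-Exo against 133155 in HC-Exo, in which 515 and 569 miRNAs had at least 1 read. The 4 5p rows summed to 88 reads in NC-Exo, 858 RPM (95% Clopper-Pearson interval 688 to 1057), and to 127 reads in HC-Exo, 954 RPM (795 to 1135). That was 0.0858% and 0.0954% of the miRNA reads. RPM is a share, so the number of exosomes or of cells releasing them cannot be told apart from the amount of a miRNA in each.

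The most abundant member was miR-181a-5p, with 30 reads in NC-Exo, 292 RPM (197 to 417), and 50 reads in HC-Exo, 376 RPM (279 to 495). It held rank 156 among all miRNAs in NC-Exo and rank 148 in HC-Exo. The row of miR-181b-5p had 29 reads in NC-Exo, 283 RPM (189 to 406), and 37 in HC-Exo, 278 RPM (196 to 383), at ranks 158 and 167. These levels were nearly alike in NC-Exo, while in HC-Exo miR-181a-5p stood above miR-181b-5p with intervals that overlapped. For miR-181d-5p, 22 reads were counted in NC-Exo, 214 RPM (134 to 325), and 31 in HC-Exo, 233 RPM (158 to 330), and its rank in the latter was 182. The lowest 5p row was miR-181c-5p, with 7 reads in NC-Exo, 68.2 RPM (27.4 to 141), and 9 reads in HC-Exo, 67.6 RPM (30.9 to 128). It stood at rank 288 in NC-Exo and 291 in the HC-Exo library, well below its cluster neighbour miR-181d-5p.

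**Figure D1:**
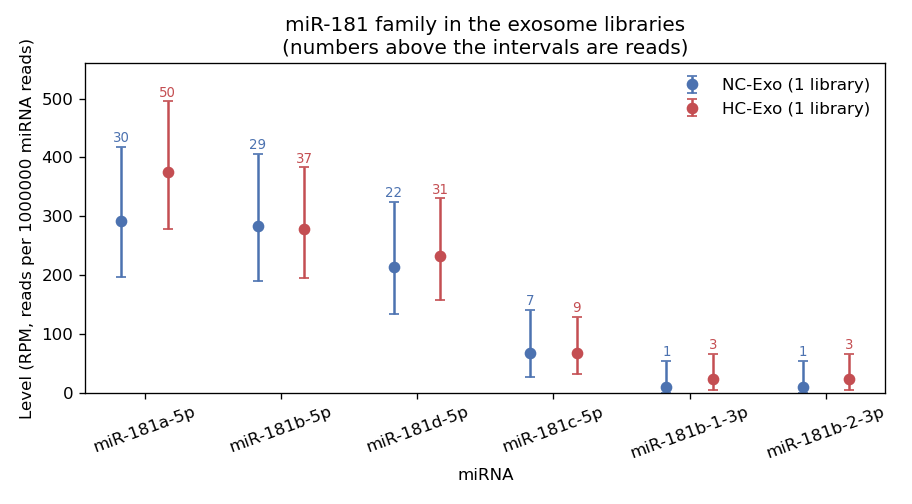
Level of each miR-181 row on the y axis (RPM) for the single NC-Exo library (blue) and the single HC-Exo library (red), with 95% Clopper-Pearson intervals and the number of reads above each. The intervals of both libraries overlap for every row, miR-181c-5p lies lowest of the 5p arms, and each 3p row rests on 1 and 3 reads.

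The order of the levels was therefore a, b, d and c in both libraries, and only the place of c was separated from the others by counting error. Each pair of 5p rows was compared within each library by a two-sided exact binomial test on the reads, with Benjamini-Hochberg adjustment over the 12 comparisons. Whether the 4 sequences were ligated, amplified and assigned to their rows equally well was not tested, so these are ratios of reads. The comparisons also take each read as counted in a single row, which was not tested. In NC-Exo, miR-181a-5p had 4.29 times the reads of miR-181c-5p (exact binomial test, adjusted p = 0.000764), and in HC-Exo 5.56 times (exact binomial test, adjusted p = 6.32e-07). The reads of miR-181b-5p were 4.14 times those of miR-181c-5p in NC-Exo against 4.11 times in HC-Exo (exact binomial test, adjusted p = 0.000938 and 0.000243). Although miR-181c-5p and miR-181d-5p come from neighbouring hairpins, the c row had 0.318 times the reads of the d row in NC-Exo and 0.290 times in the HC-Exo library (exact binomial test, adjusted p = 0.0163 and 0.00163). The neighbours a and b, and b and d, were not separated in either library. Between a and d the gap in HC-Exo was 1.61 times (exact binomial test, p = 0.0448, adjusted p = 0.0768), which did not hold up after adjustment.

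The comparison of HC-Exo with NC-Exo asks whether the miRNA cargo of the exosomes differs after Ang II. Each miRNA that reached 10 reads in the libraries combined had its reads set against the share of the HC-Exo total by a two-sided exact binomial test, adjusted over all 340 such miRNAs. A call needed an adjusted p under 0.05 and a log2 ratio of 1 or more in size, and such a test sets 1 library against the other and says nothing of other cultures. All 4 5p rows reached 10 reads and were tested, and neither 3p row did. None of the 4 was called (0 of 4), where 4.71% of all tested miRNAs were called. Without the limit on size, 0 of 4 had an adjusted p under 0.05 against 22.4% of all tested, and 0 of 4 had an unadjusted p under 0.05 against 32.4%. With so few reads a row, a count of 0 shows only that no difference was detectable at this depth.

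The largest shift was that of miR-181a-5p, at 0.36 for the log2 ratio (HC-Exo divided by NC-Exo; 95% exact interval -0.32 to 1.06, exact binomial test, adjusted p = 0.528). At its 80 reads over both libraries, 55 in HC-Exo would have been needed for an unadjusted p under 0.05, and 50 were counted. For miR-181d-5p the log2 ratio was 0.12 (-0.72 to 0.98, exact binomial test, adjusted p = 0.891), and its sign turned with upper-quartile scaling, to -0.0048. For miR-181b-5p it was -0.02 (-0.77 to 0.73), and for miR-181c-5p -0.01 (-1.61 to 1.65), both with an adjusted p of 1 in the exact binomial test. The intervals of b and d stayed between -1 and 1. The interval of miR-181a-5p reached just past 1 on the upper side, and that of miR-181c-5p, from 16 reads, reached past 1 on both sides. Its reads would have had to split 14 in HC-Exo to 2 in NC-Exo, a log2 ratio of 2.43, for an unadjusted p under 0.05 on the higher side.

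**Figure D2:**
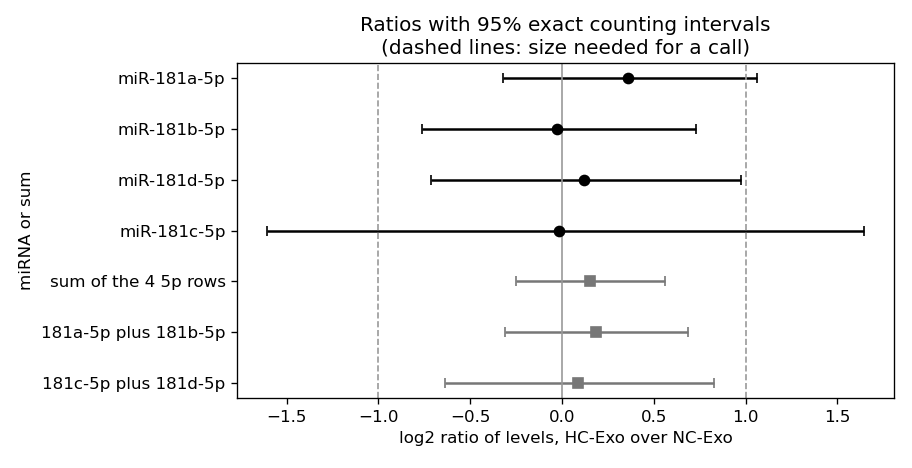
The log2 ratio of levels in HC-Exo over NC-Exo on the x axis for each 5p row (black) and for sums of rows (grey), with 95% intervals from the exact binomial share. Every interval spans 0, and the interval of the sum of the 4 rows, -0.25 to 0.56, stays inside the dashed lines at -1 and 1.

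Taken as a sum, the 5p reads had a log2 ratio of 0.15 (-0.25 to 0.56), a ratio of 1.11 (0.841 to 1.48), given without a test. Without miR-181a-5p the sum of the other rows had a log2 ratio of 0.03 (-0.48 to 0.55). Most of the small excess in HC-Exo thus lay in the row of miR-181a-5p. The median log2 ratio of the 4 rows was 0.05, beside 0.10 for all 340 tested miRNAs, and the median size of the log2 ratio was 0.07 beside 0.41. Of all tested miRNAs, 44.1% had a log2 ratio no larger in size than the 0.36 of miR-181a-5p.

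**Figure D3:**
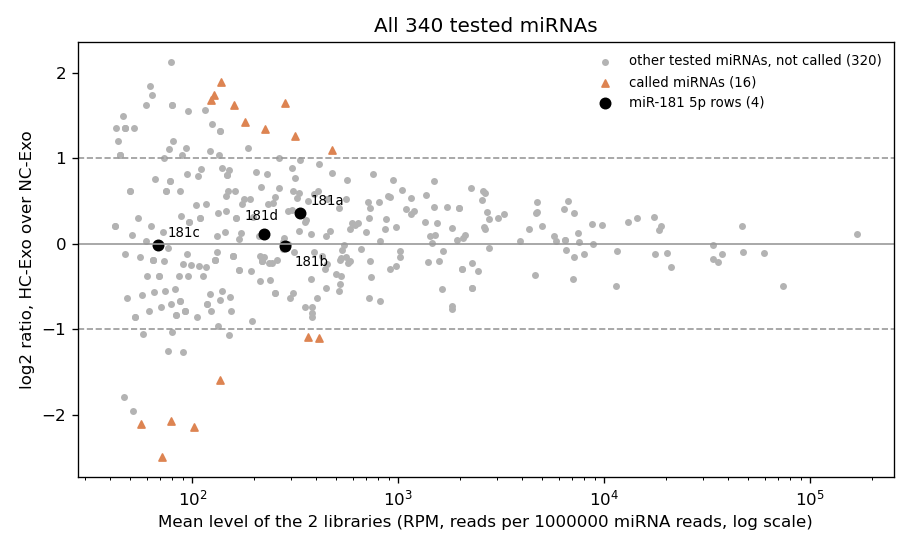
Each of the 340 tested miRNAs by its mean level over both libraries (x axis, RPM, log scale) and its log2 ratio (y axis, HC-Exo divided by NC-Exo), with the 16 called miRNAs as orange triangles and the 4 miR-181 5p rows as black dots. The miR-181 rows lie between -0.02 and 0.36, inside the dashed lines at -1 and 1, at levels where other miRNAs were called.

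The make-up of the family was much alike in both libraries. Of the 5p reads, miR-181a-5p held 34.1% in NC-Exo (24.3 to 45.0%) and 39.4% in HC-Exo (30.8 to 48.4%), and miR-181b-5p held 33.0% (23.3 to 43.8%) and 29.1% (21.4 to 37.9%). The share of miR-181d-5p was 25.0% in NC-Exo (16.4 to 35.4%) and 24.4% in HC-Exo (17.2 to 32.8%), and that of miR-181c-5p 7.95% (3.26 to 15.7%) and 7.09% (3.29 to 13.0%). Each share in HC-Exo lay within the NC-Exo interval of the same row.

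**Figure D4:**
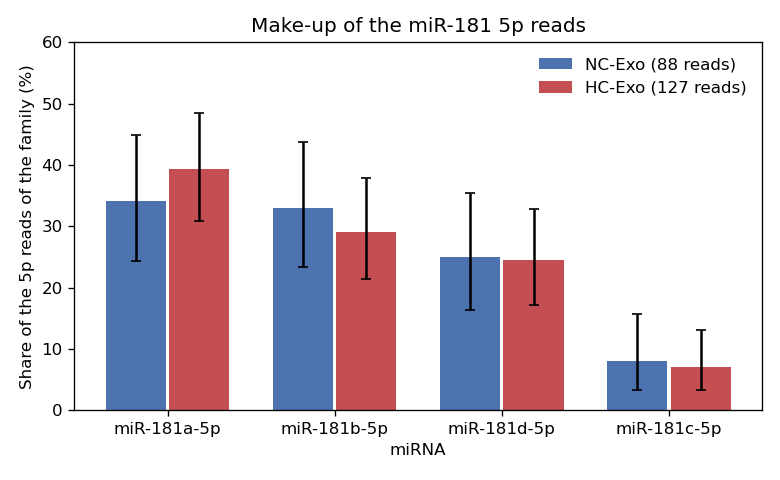
Share of the miR-181 5p reads held by each row (y axis, percent) in NC-Exo (blue, 88 reads) and HC-Exo (red, 127 reads), with 95% Clopper-Pearson intervals. The order a, b, d, c is the same in both libraries, and the widest gap is that of miR-181a-5p, at 34.1% and 39.4%.

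Whether the ratios differed between members was tested by a two-sided Fisher's exact test on the reads of 2 rows in the 2 libraries, in which the library totals cancel. In all, 8 comparisons were made, 6 between 5p rows and 2 between the arms of miR-181b, and every adjusted p was 1. The widest difference between 5p rows was that of miR-181a-5p over miR-181b-5p, 0.39 on the log2 scale (-0.65 to 1.42, Fisher's exact test, p = 0.499). Between the cluster neighbours miR-181c-5p and miR-181d-5p the difference in log2 ratio was -0.13 (-1.96 to 1.75, Fisher's exact test, p = 1). The interval of each of the 6 differences between 5p rows reached past 1 in size on at least 1 side, so such differences between members were not detectable at this depth.

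The rows were also summed by cluster, as far as the names allow. The a and b rows, which come from chromosomes 13 and 3 together, had 59 reads in NC-Exo against 87 in HC-Exo, giving a log2 ratio of 0.18 (-0.31 to 0.69). The c and d rows of chromosome 19 had 29 and 40 reads, a log2 ratio of 0.09 (-0.64 to 0.83), and made up 33.0% of the 5p reads in NC-Exo and 31.5% in the HC-Exo library. The difference in log2 ratio between these sums was 0.10 (-0.81 to 0.99, Fisher's exact test, p = 0.882). Summing by likeness of sequence instead, a with c against b with d, gave a difference of 0.26 (-0.58 to 1.10, Fisher's exact test, p = 0.578). These sums do not move when reads are exchanged within the near-identical pairs. Reads counted in both rows of a pair would change them, and whether there were any was not tested.

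The 3p arms were nearly absent. Of 5 rat 3p arms of the family with a sequence in RefSeq, only miR-181b-1-3p, at chr13:52037303-52037323, had a row in the count table analysed here, and the row of miR-181b-2-3p carried the same counts. The sequences with their seeds in capitals show how much more the 3p arms vary than the 5p arms.
miR-181a-1-3p: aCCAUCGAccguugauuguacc
miR-181a-2-3p: aCCACCAAccguugacugu
miR-181b-1-3p: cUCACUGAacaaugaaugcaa
miR-181c-3p: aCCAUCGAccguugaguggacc
miR-181d-3p: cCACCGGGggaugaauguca
Only miR-181a-1-3p and miR-181c-3p share a seed. Each of the 3p rows of miR-181b had 1 read in NC-Exo against 3 in HC-Exo, 9.75 RPM (0.247 to 54.3) and 22.5 RPM (4.65 to 65.8). Both libraries are at or under 3 reads, taken here as the floor of counting, so no ratio is given. Together the 3p rows made up 6.45% of the reads of miR-181b in NC-Exo (0.791 to 21.4%) and 14.0% in HC-Exo (5.30 to 27.9%), or 3.33% and 7.50% if both rows hold the same reads. The 5p arm was thus the main arm in both libraries, and a difference between them in the use of the arms was not detectable (Fisher's exact test for each 3p row, p = 0.630).

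The rest of the exosomal miRNAs gives the setting of these levels. Of the muscle miRNAs, all 7 listed had a row, led by miR-1a-3p, and their sum was 168954 RPM in NC-Exo and 184327 in the HC-Exo library. Markers of other cells were also present. The endothelial arms of miR-126a summed to 91114 RPM in NC-Exo against 66817 in HC-Exo, but the lower sum was that of miR-126a-5p, at 86494 and 61470 RPM, while miR-126a-3p stood at 4620 and 5347 RPM (log2 ratio 0.21, exact binomial test, adjusted p = 0.0572). There were 5 fibroblast and smooth muscle miRNAs, which summed to 38252 and 39067 RPM. For lymphoid and other blood cells, in some of which the miR-181 family is also abundant, 7 of 8 listed miRNAs had a row. Their summed level was 7933 RPM in NC-Exo and 8576 in the HC-Exo library, most of it miR-486a-5p, at 6374 and 6571 RPM. In the same list, the lymphoid miR-150-5p had 83 and 110 reads. By contrast, miR-142a-3p had 2 reads in each library and miR-144-3p had no row in the table analysed here. Beside the 4.71% called of all tested miRNAs, 2 of 7 were called in the muscle list and 1 of 5 in the fibroblast and smooth muscle list, all of these higher in HC-Exo, and 0 of 2 and 0 of 5 in the endothelial and blood lists. With the adjusted p alone, which 22.4% of all tested passed, 5 were higher and 0 lower in the muscle list, 3 higher and 1 lower (miR-214-3p, log2 ratio -0.49) in the fibroblast and smooth muscle list, 0 higher and 1 lower (miR-126a-5p, -0.49) in the endothelial list and 1 higher and 0 lower in the blood list. The median log2 ratios of the tested rows were 0.51 for muscle, -0.14 for endothelium, 0.31 for fibroblast and smooth muscle and 0.56 for blood cells. The tested muscle rows ranged from -0.16 for miR-208b-3p to 1.65, with the dominant miR-1a-3p at 0.11. The fibroblast and smooth muscle rows ranged from -0.49 to 1.26, and the tested blood rows from 0.03 to 0.75. Which cells released the miR-181 reads was not tested.

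The family was also set beside other miRNAs with a known part in NF-κB signalling and inflammation. Of 11 such rows, all tested, 1 was called higher in HC-Exo and 0 lower, beside 4.71% called of all tested, and their median log2 ratio was 0.16. With the adjusted p alone, which 22.4% of all tested passed, 4 were higher and 1, miR-126a-5p, was lower. This list shares miR-223-3p with the blood list and the arms of miR-126a with the endothelial list. The one called was the row named miR-155 without an arm, with 6 reads in NC-Exo against 29 in HC-Exo (log2 ratio 1.90, exact binomial test, adjusted p = 0.0121). In the count table, whose tested rows otherwise follow the order of names, this row stood between miR-434-5p and miR-450b-3p. Whether its label names the miRNA that was counted was not tested. A separate row named miR-155-5p had 11 and 8 reads, a log2 ratio of the opposite sign, -0.84 (exact binomial test, adjusted p = 0.456), so no direction is given for miR-155 from these counts. The paper also measured miR-155 in the exosomes by quantitative PCR and describes the result as essentially identical to its sequencing. That measurement is not weighed here. The miRNA nearest in level to miR-181a-5p was miR-31-5p of the same list, with 33 reads in NC-Exo against 51 in HC-Exo, at a distance of 0.14 between the log2 RPM of both libraries. It was followed by miR-345-3p, with 33 and 52 reads and a distance of 0.15, and by miR-323-3p, with 32 and 46 reads and a distance of 0.15. A likeness over only 2 libraries is a likeness of level.

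As guide arms spread over several loci, the let-7 and miR-30 families are the closest in kind. The 9 let-7 guide arms, with miR-98-5p among them, had 210 times the reads of the miR-181 5p rows in NC-Exo and 180 times in the HC-Exo library. The 5 miR-30 5p arms had 7.42 times in both, with a log2 ratio of 0.15 (0.01 to 0.30) beside the 0.15 of the miR-181 sum. The largest row of each family held 34.3% of its reads in NC-Exo for let-7c-5p, 38.9% for miR-30c-5p and 34.1% for miR-181a-5p. In HC-Exo these shares were 33.5%, 39.4% and 39.4%. The shares are of families of unlike size, with 9, 5 and 4 rows. The difference between these families was not tested.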

How the data were processed

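Exosomal small RNA was sequenced from 1 NC-Exo and 1 HC-Exo library. The authors deposited raw read counts per mature miRNA, which were used throughout. The submitters' processing notes name Bowtie2 and the mouse builds mm9 and GRCm38, without their role, and the mismatches allowed are not given in the sources used here. The authors also deposited a normalized signal, 12.1 per read in NC-Exo against 9.23 in HC-Exo, used only as an alternative. Their table of fold changes and p-values for the same libraries was not used.

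RPM was computed from the library totals of miRNA reads, without scaling by length. The two-sided exact binomial test was run on all 340 miRNAs that reached 10 reads in the libraries combined, with Benjamini-Hochberg adjustment. It was tested on simulated data that held counting error only, so spread between cultures was not covered. A library at or under 3 reads was taken as at the floor. Intervals are 95% exact intervals. The members, lists and tests were chosen with earlier results of these data known, and the comparison of levels within a library was added after its values were seen. Named miRNAs are the members, the 3 nearest in level to the most abundant member, and the largest rows of the families set beside them. Rows of the lists, and the neighbours of the row named miR-155, are named without a fixed rule. The largest row of a list is not always among them. Sequences come from RefSeq for GRCr8, in which 5 of the 6 rows and 312 of all 635 were matched by name. Alternatives were scaling, filters, thresholds, pseudocounts, sums of rows and an assumed spread, with edgeR 4.0.16 and DESeq2 1.42.0 in R 4.3.3. The rest was run in Python 3.11.15 with scipy 1.17.1.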

Additional observations from a re-analysis of the deposited data

How the results depend on the processing

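No paired analysis was possible because each condition had a single library, which also left no replicate to leave out. Of the 28 log2 ratios of members under other scalings, pseudocounts and the deposited normalized values, 27 kept their direction, and the lowest adjusted p among the other scalings was 0.573. The exception was miR-181d-5p, at -0.0048 with upper-quartile scaling, which shifted every log2 ratio by -0.12. All the other scalings and the pseudocounts likewise lowered the ratio of every member. The negative ratios of miR-181b-5p and miR-181c-5p thus could not turn. In the member rows the deposited values were the counts times a constant for each library, so they repeat the main ratios. A direction kept in these cases is no check of it. The log2 ratio of the summed 5p rows ranged from 0.03 to 0.17 over 6 alternatives. Of 8 differences between members, that of miR-181b-5p and miR-181c-5p turned to 0.0051 with a pseudocount of 0.5 reads. The number of members called was 0 under each alternative. Over all miRNAs, the 16 calls became 7 with at least 50 reads over both libraries, where fewer miRNAs were tested, 76 and 110 with the adjusted and the unadjusted p-value without the log2 limit, and 0 with edgeR's exact test when replicates were taken to vary with a coefficient of 0.1, 0.2 or 0.4. The family is limited by the single library per condition and by depth, at which a single read is worth 9.75 RPM in NC-Exo against 7.51 in HC-Exo.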

Other observations

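The rows of miR-181b-1-3p and miR-181b-2-3p had equal counts, 1 read in NC-Exo and 3 in HC-Exo. In the whole table, 4 rows carried these counts, and of 8 pairs of rows named -1 and -2 of the same miRNA and arm, this was the only pair with equal counts in both libraries. Equal counts were also found between rows with other kinds of name, at greater depth. With NC-Exo given first, miR-486a-5p and miR-486b-5p both stood at 654 and 875 reads. The rows miR-199a-3p and miR-199b-3p shared 174 and 301, and let-7a-1-3p and let-7c-2-3p shared 230 and 243. Other such rows differed, as miR-199a-5p at 19 and 59 and miR-199b-5p at 13 and 43. Whether the same reads were counted under more than 1 name, for miR-181b or elsewhere, was not tested.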
